A study of Mus musculus with 12 samples.

Results

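Cadherins are transmembrane proteins that hold neighbouring cells together through calcium-dependent contacts. Their genes were followed through 12 single cultured mouse cardiac progenitor cells (CPCs). The members were all genes of the count table named Cdh with a number, other than Cdh5, together with every gene whose name begins with Pcdh. This gave 91 of 21729 genes: 22 classical and related cadherins (Cdh), 12 protocadherins outside the large gene cluster (Pcdh), and 57 clustered protocadherins, which were 13 Pcdha, 22 Pcdhb and 22 Pcdhg genes. The 2 questions were which cadherins all cells shared and whether the clustered genes differed from cell to cell.

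CPCs are c-Kit+ cells that can be sorted from the adult heart and grown on a dish. Those analysed here were a lineage-depleted c-Kit+ fraction, sorted with magnetic beads from the non-myocytes of hearts of 12-week-old female FVB mice. They had grown as an adherent culture on gelatin in medium with serum, leukemia inhibitory factor, basic fibroblast growth factor and epidermal growth factor until passage 5, and were lifted with trypsin and picked by hand. A pair of hearts was pooled for each preparation, according to the study's methods, and the labels name neither the heart nor the culture of a cell. All 12 cells therefore form 1 group without a control and count as 1 sample, so that each SD below describes these cells and no test was made between them.

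Total counts ran from 3453708 in CPC1 to 5690184 in CPC12, and the cells had 10022 to 11950 genes with at least 1 count. A gene without a count could lie at up to 0.869 CPM in CPC1 and 0.527 CPM in CPC12, the level of 3 counts, where CPM is the count of a gene per 1000000 counts of its cell. The libraries fell into 2 sets by their number of genes: CPC7, CPC8, CPC10, CPC11 and CPC12 had 10022 to 10181 genes and the highest totals, 5258541 counts or more, and the other 7 cells had 11216 to 11950 genes and at most 5025517 counts. The labels give no reason for this split. By their markers, CPC10, CPC3 and CPC11 stood apart. CPC10 held 9810 CPM over 10 endothelial marker genes, where no other cell exceeded 58.5 CPM, while Cldn5 and Vwf of that list had no count in any cell. CPC3 held 1622 CPM over 10 blood marker genes, of which Cd53 alone gave 1463 CPM, where no other cell exceeded 75.6 CPM and Itgam had no count in any cell. CPC11 held 3737 CPM over 10 mural marker genes, of which Acta2 alone gave 3668 CPM, where no other cell exceeded 172 CPM. The other mural markers counted in CPC11 were Pdgfrb (57.6 CPM), which was higher in CPC7 and CPC12, and Tagln (11.2 CPM). Myh11, Cnn1, Rgs5, Cspg4, Notch3 and Des had no count in CPC11, and Kcnj8 had none in any cell. Kit, the receptor used for the sort, was counted in CPC10 (21 counts) and in no other cell. The part of these markers in the results below was not tested.

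Classical cadherins bind their own kind on the next cell and are tied to actin inside the cell by catenins. E-cadherin (Cdh1) is typical of epithelia and N-cadherin (Cdh2) of mesenchyme, nerve and heart muscle. Clustered protocadherins are best known from neurons, where each cell switches on its own small set of promoters, and this set serves as a label by which a neuron tells its own branches from those of others. In the alpha and gamma clusters a variable exon is spliced to constant exons that all genes of the cluster share, whereas each beta gene stands on its own.

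Of the 91 members, 51 had a count in at least 1 cell and 40 (44.0%) had none in any cell. Of all genes 33.4% had no count in any cell. Counts in every cell were found for 6 members (6.59%), namely Cdh2, Cdh11, Cdh13, Pcdh7, Pcdh9 and Pcdh1, and none of them is a clustered gene. Of all genes 35.3% were counted in every cell. Cdh2, Cdh11 and Cdh13 were at 10 CPM or more in every cell, a level that 21.5% of all genes reached. At the other end, 15 members (16.5%) had counts in a single cell, beside 6.05% of all genes. The share of members counted in every cell was thus below that of all genes, and the share without any count was above it. These shares are not matched for level.

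Cdh2 was the highest of the members per length of exon, with a mean of 21.8 CPM per kilobase of exon. It ran from 47.2 CPM in CPC3 over a median of 163 CPM to 334 CPM in CPC11, with a mean of 175.6 ± 88.8 CPM (SD, 12 cells). The lowest cell thus still had 179 counts, and the fold between the highest and the lowest cell, 7.07, was the smallest among the 6 shared members.

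Cdh11 (chromosome 8, 102632095 to 102785642, minus strand), the OB-cadherin of mesenchymal cells, was second at 11.8 CPM per kilobase and spread more widely. Its lowest value was 12.7 CPM in CPC4, its median 51.5 CPM and its highest 365 CPM in CPC7, a 28.8-fold range. The cells fell on both sides of a gap: CPC1, CPC7, CPC10, CPC11 and CPC12 lay between 155 and 365 CPM, and the other 7 cells between 12.7 and 55.6 CPM. All but CPC1 of the higher cells belong to the 5 libraries with fewer genes, which ran from 55.6 to 365 CPM with a median of 179 CPM, where the median of the 7 libraries with more genes was 19.9 CPM. The part of the library set in this spread was not tested. For a measure of spread, the squared coefficient of variation (CV) was set against the running median of the genes of most similar mean level, on the log10 scale. Cdh11 lay 0.74 above that median, higher than 95.2% of the 11421 genes so measured.

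Cdh13 (chromosome 8, 118283733 to 119324921, plus strand) encodes T-cadherin, which is held in the membrane by a lipid anchor and has no catenin-binding tail. It ran from 15.8 CPM in CPC4 through a median of 82.5 CPM to 240 CPM in CPC3, and CPC10 was next with 189 CPM. Its mean of 100.4 ± 70.5 CPM (SD, 12 cells) and that of Cdh11, 105.0 ± 109.6 CPM, differed by less than the spread of either gene between cells. CPC4 was the lowest cell for both genes, while CPC3, the highest for Cdh13, had only 18.7 CPM of Cdh11.

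These 3 genes made up 87.7 to 100.0% of the summed Cdh level of a cell. Cdh2 was the highest of them in 8 cells, Cdh11 in CPC1, CPC7 and CPC10, and Cdh13 in CPC3, and the number of cells led by each gene was the same when levels were divided by exon length. Cdh2 gave the highest share in CPC4, with 649 of the 811 Cdh counts, and the lowest in CPC3, with 15.0%, where Cdh13 gave 76.1%. The summed Cdh level had a median of 321 CPM and ran from 169 CPM in CPC5 to 799 CPM in CPC7. It moved with the library set, with 325 to 799 CPM (median 566) in the 5 libraries with fewer genes and 169 to 336 CPM (median 255) in the other 7. All 12 cells therefore carried the same leading genes in unlike proportions.

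**Figure D1:**
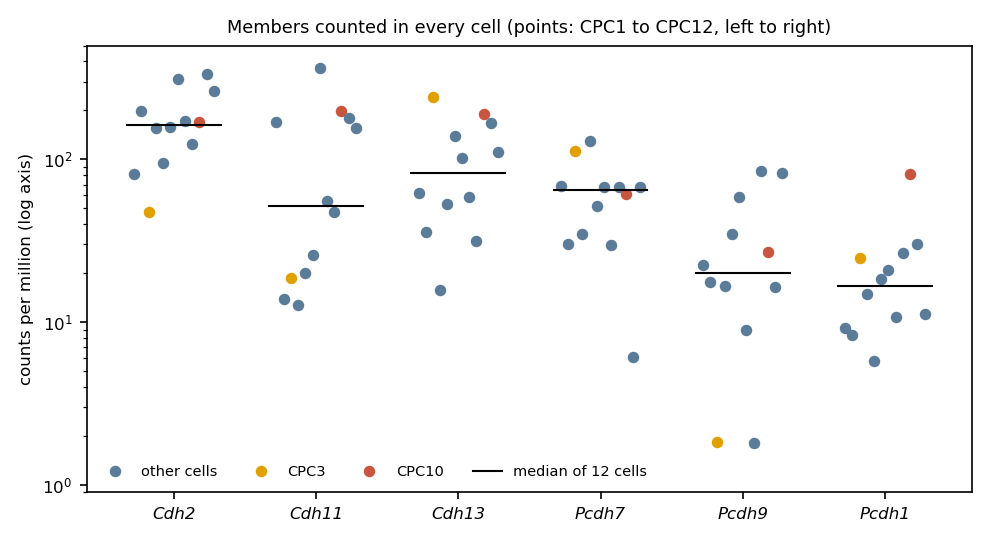
Each point is 1 cell (CPC1 to CPC12 from left to right within a gene), placed by its level in CPM on a log axis, and the black line is the median of 12 cells; CPC3 and CPC10 are coloured. Cdh2 stays between 47.2 and 334 CPM, Cdh11 has a group of 5 cells at 155 CPM or more, and CPC10 is the highest cell for Pcdh1 at 81.5 CPM.

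The 3 other shared members were delta-protocadherins, single genes outside the cluster that are expressed in many tissues. Pcdh7 (chromosome 5, 57717967 to 58133230, plus strand) had a mean of 60.7 ± 34.9 CPM (SD, 12 cells), with a low of 6.13 CPM in CPC11, a median of 64.4 CPM and a high of 130 CPM in CPC5. Pcdh9 (chromosome 14, 93013410 to 93890679, minus strand) ran from 1.82 CPM in CPC8, which rested on 10 counts, through 19.9 CPM to 84.9 CPM in CPC9. It had the widest range of the 6 shared members, 46.7-fold, and the low value of CPC8 was matched by CPC3 with 7 counts. Pcdh1 was at 5.77 CPM in CPC5, at a median of 16.6 CPM and at 81.5 CPM in CPC10. CPC10 was well apart in Pcdh1, since CPC11 came next with 30.1 CPM.

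Pcdh19 and Pcdh18 came close to being shared. Pcdh19, a gene of the X chromosome that in the brain works as a partner of Cdh2, was counted in 10 cells with a median of 12.1 CPM and a high of 38.0 CPM in CPC3, and had no count in CPC10 and CPC11. Pcdh18 was counted in 9 cells, with a median of 10.9 CPM and a high of 34.5 CPM in CPC4, and had no count in CPC3, CPC10 and CPC12. Both had counts in fewer cells than genes of like mean, for which the running median was 12 cells at the level of Pcdh19 and 11 cells at that of Pcdh18. A similar pattern was seen for Cdh18, a type II cadherin known from the nervous system, which was at 36.5 CPM in CPC8 and at most at 11.2 CPM in any other cell, and had no count in CPC3, CPC5 and CPC10. Of the remaining Pcdh members, Pcdh20 was counted in 5 cells, at most at 9.03 CPM in CPC6, and Pcdh17 in 1 cell with 2 counts.

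The promoters of Pcdh9, Pcdh19 and Pcdh10 are shown because these delta-protocadherins ran from a count in every cell to a count in none. Each line gives the 250 bases before the start site, from the RefSeq promoter table (build GRCm38.p6, the assembly behind mm10), 5′ to 3′ on the strand of the gene, and capitals mark CpG, the letters CG, which read the same on both strands. The windows are chr14:93890680-93890929 (minus strand) for Pcdh9, chrX:133688994-133689243 (minus strand) for Pcdh19 and chr3:45378148-45378397 (plus strand) for Pcdh10, and none overlaps an annotated exon.
Pcdh9: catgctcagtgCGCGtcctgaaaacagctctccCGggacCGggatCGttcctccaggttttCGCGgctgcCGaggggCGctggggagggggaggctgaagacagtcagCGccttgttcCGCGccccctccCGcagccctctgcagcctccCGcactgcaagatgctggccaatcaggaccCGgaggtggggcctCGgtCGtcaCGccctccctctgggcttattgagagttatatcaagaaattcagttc
Pcdh19: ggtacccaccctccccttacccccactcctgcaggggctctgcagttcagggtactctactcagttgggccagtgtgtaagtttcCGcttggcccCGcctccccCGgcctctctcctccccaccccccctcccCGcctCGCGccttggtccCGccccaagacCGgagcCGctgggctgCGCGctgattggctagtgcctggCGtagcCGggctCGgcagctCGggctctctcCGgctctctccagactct
Pcdh10: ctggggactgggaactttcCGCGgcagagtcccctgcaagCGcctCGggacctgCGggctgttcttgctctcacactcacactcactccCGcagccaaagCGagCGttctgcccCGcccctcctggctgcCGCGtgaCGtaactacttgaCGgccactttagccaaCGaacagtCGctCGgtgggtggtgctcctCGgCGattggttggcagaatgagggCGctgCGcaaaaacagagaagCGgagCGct
Pcdh9, counted in 12 cells, has 18 CpG in this window, Pcdh19, counted in 10 cells, has 16, and Pcdh10, counted in none, has 22. As many CpG or more stood in 21.7%, 25.4% and 14.8% of the 32851 promoters of the table. Over the 22 members with a promoter in the table, with the promoter of most CpG taken where a gene has several, the 13 that were counted had 0 to 30 CpG with a median of 8, and the 9 that were not had 5 to 22 with a median of 10, so that the ranges overlapped.

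Several cadherins that define other tissues had no counts. Cdh1, P-cadherin (Cdh3) of epithelia, R-cadherin (Cdh4), M-cadherin (Cdh15) of skeletal muscle and Cdh19 of the Schwann cell lineage had 0 counts in each of the 12 cells, as had Cdh7, Cdh8, Cdh9, Cdh12 and Cdh20. Among the Pcdh members the same held for Pcdh8, Pcdh10, Pcdh11x and Pcdh15. At the depth of these libraries this places each of them at no more than 0.527 to 0.869 CPM per cell, for counting error. Cdh6, a type II cadherin, had 21 counts in CPC9, 7 in CPC1 and 2 in CPC4. Cdh24, of the same type, had 20 counts in CPC8 and at most 3 in any other cell, and Cdh23, the cadherin of the hair cell tip link, had at most 4 counts in each of 3 cells.

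Some members were counted in 1 cell and in no other. Cdh17, the liver-intestine cadherin, had 23 counts in CPC3 (6.06 CPM; exact 95% Poisson interval 14.6 to 34.5 counts), and Cdh22 had 9 counts there. Cdh10 had 20 counts in CPC7, and Cdh16, the kidney cadherin, had 2. CPC3 held 5 members that no other cell had and CPC7 held 4, clustered genes included. Cdh26 was broader, with 7 cells and a high of 9.20 CPM in CPC10.

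No Pcdha gene was counted. The 13 alpha genes gave 0 counts in 156 gene-by-cell values, against a total of 56346231 counts. The limit that 0 counts allow is 0.0532 CPM for the alpha genes together over all cells. The alpha genes share their constant exons, and bases that overlap an exon of any other annotated gene were counted as shared too. By this count only 7.0 to 51.4% of the exon bases of each are its own, which is 404 to 3767 bases per gene. The part of the counting rule in the missing alpha counts was not tested. Pcdhac1 and Pcdhac2, the C-type alpha genes, which neurons express more uniformly, had no counts either.

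Among the beta genes 11 of 22 were counted, and 1 to 7 of them in any cell with a median of 5. Their summed level ran from 8.89 CPM in CPC2 through 20.9 CPM to 71.1 CPM in CPC11. Pcdhb17 led: it was counted in 11 cells, was the highest beta gene in 6 of them, and had a median of 7.20 CPM and a high of 43.5 CPM in CPC11. Only CPC10 lacked it. Pcdhb22 followed in 10 cells, with a median of 3.43 CPM and at most 10.6 CPM, in CPC7, and had no count in CPC2 and CPC10.

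The other leading beta genes were each high in a few cells. Pcdhb21 was counted in 8 cells, with 11.5 CPM in CPC10, 10.9 CPM in CPC12 and 10.5 CPM in CPC7. It was the highest beta gene of CPC6, CPC10 and CPC12. In CPC10 it gave all 61 counts of the beta cluster (100%, exact 95% binomial interval 94.1 to 100%). Pcdhb20 was high in a pair of cells: CPC11 had 18.2 CPM, CPC8 had 17.1 CPM, CPC7 had 8 counts, and the other 9 cells had none. Genes of its mean level were counted in a median of 8 cells, and its spread lay 0.51 above the running median, higher than 90.9% of genes. Pcdhb3 was counted in 9 cells and led in CPC9, with 46 counts. Of the others, Pcdhb2 was counted in 7 cells with at most 21 counts, Pcdhb19 in 3 cells with at most 34 and Pcdhb4 in 2 cells with at most 6. Pcdhb7 (10 counts) and Pcdhb8 (1 count) were found in CPC7 alone, and Pcdhb16 (8 counts) in CPC4 alone.

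The share of sequence that a read can place was compared for the beta genes. Of the 75-base stretches (the read length of the study) of the 11 genes without counts, 95.9 to 100% occurred in no annotated transcript of another gene, and the median was 99.4%. For the 11 counted genes the median was 98.7%. Pcdhb12 among those without counts shares exon bases with an overlapping gene, and 36.5% of its exon bases are its own. The part of read placement in the missing counts was not tested.

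Of the 22 gamma genes 20 had a count, and 5 to 11 in any cell with a median of 6.5. Their summed level ran from 12.7 CPM in CPC5 through 24.6 CPM to 48.4 CPM in CPC8. It too moved with the library set, with a median of 39.4 CPM (26.7 to 48.4) in the 5 libraries with fewer genes and of 20.0 CPM (12.7 to 28.0) in the other 7. Gamma genes share constant exons as alpha genes do. Only 26.4 to 68.5% of the exon bases of the counted genes are unshared, where an overlap on either strand counts as shared. Pcdhga10 has no unshared bases, but 56.1% of its 75-base stretches occurred in no annotated transcript of another gene. How the counting rule treated shared bases is not given in the sources used here, so that gamma levels are uncertain.

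The 3 C-type genes at the end of the gamma cluster were counted in 8 to 11 cells. Pcdhgc3 was counted in 11 cells, with a median of 10.2 CPM and a high of 29.7 CPM in CPC12, and led the gamma genes in 8 cells. Its only cell without a count was CPC5. Pcdhgc5 was counted in 11 cells too, with a median of 3.58 CPM and a high of 7.91 CPM in CPC12, and was missing in CPC10. It was the most even of the 15 clustered genes whose spread could be measured. Its spread lay 0.40 below the running median, with 7.77% of genes lower still, and genes of its mean level were counted in a median of 8 cells. Pcdhgc4 was counted in 8 cells, at most at 7.42 CPM in CPC7.

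The 3 C-type genes had counts in 83.3% of their gene-by-cell values and the 19 other gamma genes in 23.7%. All of these 19 had lower means, at most 1.52 CPM (Pcdhga4), where the lowest C-type mean was 2.49 CPM (Pcdhgc4). For Pcdhgc3 and Pcdhgc4 the number of cells, 11 and 8, was the running median of genes of like mean. The share of the 3 C-type genes in the gamma counts of a cell had a median of 66.5%, and ran from 13.5% in CPC11 to 90.3% in CPC12. Of the 19 others, Pcdhga7 was counted in 8 cells, Pcdhga6 in 6 and each remaining gene in 5 or fewer. Pcdhga4 had 52 counts in CPC10 and at most 14 in any other cell, Pcdhga7 had 43 in CPC8, Pcdhgb1 had 34 and Pcdhga9 had 30 in CPC11, and Pcdhgb6 had 28 in CPC8 and 27 in CPC11. Pcdhga3 had 29 in CPC7 and Pcdhga6 had 20 in CPC11, and Pcdhga8 and Pcdhga10 had no count in any cell. The highest count of each of the remaining 10 ran from 1 to 14. CPC11 thus had the lowest C-type share and drew most of its gamma counts from variable genes, with Pcdhgb1 as the highest.

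**Figure D2:**
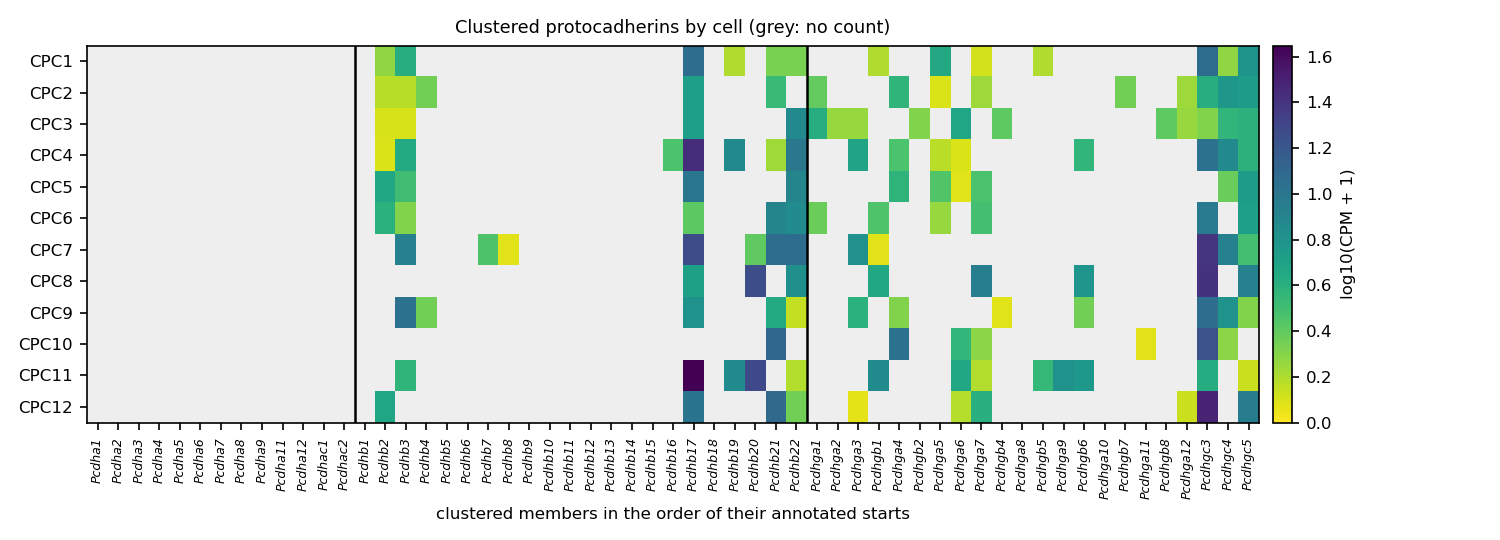
Rows are the 12 cells and columns are the 57 clustered genes in the order of their annotated starts, divided by black lines into Pcdha, Pcdhb and Pcdhg; colour is log10(CPM + 1) and grey marks no count. The alpha block is empty, Pcdhb17, Pcdhb22, Pcdhgc3 and Pcdhgc5 form columns that run through 10 or 11 cells, and the other genes have counts in 9 cells or fewer.

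Beta and gamma sets were then compared between cells. A cell had 7 (CPC10) to 15 (CPC3 and CPC4) clustered genes with a count, with a median of 12. The 5 libraries with fewer genes had a median of 10 and the other 7 a median of 13. After all cells were thinned to the total of CPC1 the median was 11.5. No 2 cells had the same set, so that 12 sets were seen, and there were still 12 sets when a gene had to have 10 counts, at which the median set held 6 genes. The sets of Cdh and other Pcdh genes were likewise different in each of the 66 pairs of cells. Of the 140 gene-by-cell values with a count, 33 (23.6%) rested on 1 to 3 counts and 81 on 10 or more, and only 16, in 8 cells, were at 10 CPM or more. For Cdh5, which had 3695 counts in CPC10, the other cells had 0 to 12 counts, and the part of reads from other libraries in the low counts was not tested.

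Over the 66 pairs of cells, the number of clustered genes counted in both divided by the number counted in either (the Jaccard index) had a median of 0.389. CPC8 and CPC10 shared least, with 2 of 13 genes (0.154), and CPC1 and CPC6 shared most, with 10 of 14 (0.714). For the Cdh and other Pcdh genes the median was 0.655. The sampling of weakly expressed genes also sets such overlaps, so the 6288 genes of the table within the same range of mean level (0.0156 to 11.7 CPM) were compared in the same way, and their median was 0.481 with a range of 0.402 to 0.646. Their typical level was higher, with a median mean of 1.29 CPM against 0.908 CPM for the 31 counted clustered genes. The median overlap of the clustered genes was thus below the median of these genes, while single pairs ran past both ends of their range. The sets differ in size, with 31 counted genes against 6288, so that the ranges are not comparable. Level was not matched gene by gene.

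**Figure D3:**
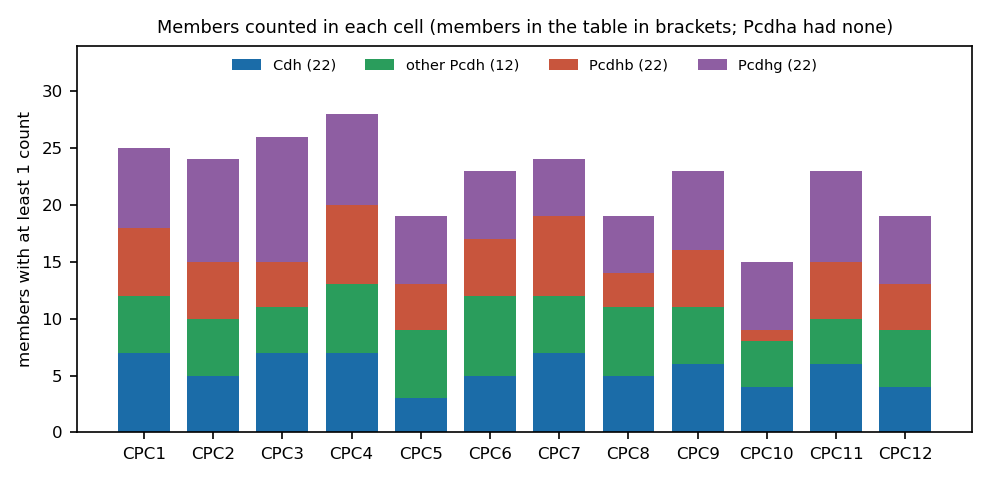
Bars give the number of members with at least 1 count in each cell, stacked by family, with the number of genes of each family in the table in brackets. The clustered genes (Pcdhb and Pcdhg together) range from 7 in CPC10 to 15 in CPC3 and CPC4, and the Cdh genes from 3 in CPC5 to 7.

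Next to genes of like mean level, the clustered genes stood out little as a group. The number of cells with a count was above the running median for 8 of the 31 counted genes, at it for 14 and below it for 9. It lay within the middle quartiles of genes of like mean for 25 of them (80.6%), beside 73.3% of the 6288 genes in the same range. The exceptions were Pcdhb20 and Pcdhga9, in fewer cells, and Pcdhb2, Pcdhga7, Pcdhga12 and Pcdhgc5, in more. For the 20 counted Cdh and other Pcdh genes, the number of cells was above the running median for 2 and below it for 8 (40.0%), and it lay under the middle quartiles for 5 of the 20. Of the 14462 genes with a count, many of which have one in all 12 cells, 20.7% were below the running median and 10.6% under the middle quartiles. Within the range of means of the clustered genes lay 12 of the 20, with 6 below the running median and 3 under the middle quartiles, beside 32.0% and 12.7% of the 6288 genes there.

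The spread of levels was measured next. It could be measured for 15 of the 57 clustered genes, which had a mean of 1 CPM or more and a count in at least 3 cells, and for 11 of the 34 others. The clustered genes lay at a median of 0.027 above the running median of all genes, with 60.0% of them above 0, beside 49.8% of all genes. The Cdh and other Pcdh genes lay at a median of 0.28, and 10 of 11 (90.9%) were above 0. Only Cdh26 was not. Genes with few counts pass this filter only through the cells where they are high.

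**Figure D4:**
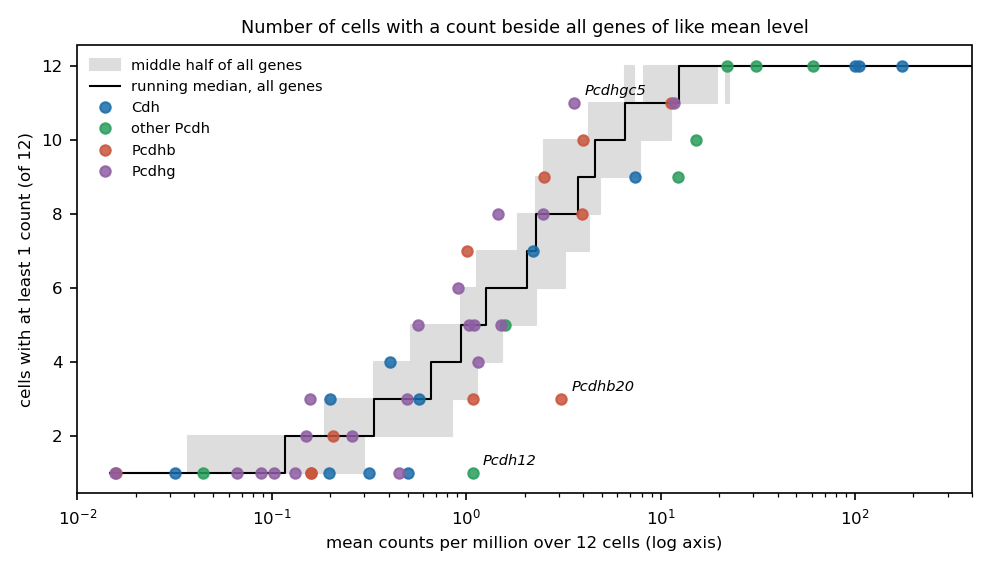
Each coloured point is a member with a count, placed by its mean level over 12 cells (CPM, log axis) and by the number of cells with a count; the black line is the running median of all genes and the grey band their middle quartiles. Most clustered genes lie in the band, Pcdhgc5 (11 cells) lies above it, and Pcdhb20 (3 cells) and Pcdh12 (1 cell) lie below it.

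**Figure D5:**
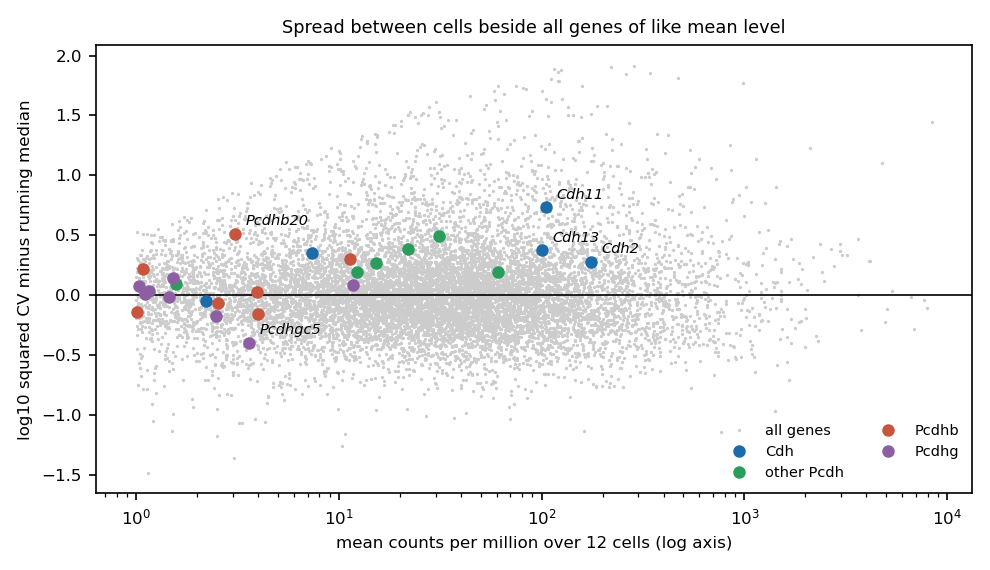
Grey dots are the 11421 genes whose mean reached 1 CPM, placed by mean level (CPM, log axis) and by their log10 squared CV minus the running median, so that 0 is the spread usual at that level. Cdh11 is the highest member at 0.74, Pcdhgc5 the lowest at −0.40, and the clustered genes scatter around 0.

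CPC10 differed from the rest in many members at once. Pcdh12, the protocadherin of endothelial cells, had 69 counts there (13.0 CPM) and none in any other cell, where genes of its mean level were counted in a median of 5 cells. Cdh5 (VE-cadherin), the endothelial cadherin that is not a member, was at 694 CPM in CPC10 and at most at 2.37 CPM elsewhere. CPC10 had the highest values of Pcdh1, Pcdhb21, Pcdhga4 and Cdh26 as well. It had no counts of 7 members that had counts in at least 9 cells, namely Pcdh18, Pcdh19, Cdh18, Pcdhb3, Pcdhb17, Pcdhb22 and Pcdhgc5, whereas each other cell lacked at most 2 such members. Its Cdh2 (169 CPM), Cdh11 (199 CPM) and Cdh13 (189 CPM) were within the range of the other cells. Without CPC10, Pcdhb17 and Pcdhgc5 joined the members counted in every cell, which then numbered 8.

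CPC3 stood apart in other members. It had the lowest Cdh2 and the highest Cdh13 and Pcdh19 of the 12 cells, and it alone had counts of Cdh17, Cdh22, Pcdhga2, Pcdhgb2 and Pcdhgb8. It held the most gamma genes, 11, with the highest, Pcdhga6, at 18.4% of its gamma counts (14 counts, exact 95% binomial interval 10.5 to 29.0%). CPC11, the cell with the highest Acta2, had the highest Cdh2, Pcdhb17 and Pcdhb20, the lowest Pcdh7 and C-type share, and the only counts of Pcdhga9. With CPC3 and CPC10 left out together, the median Jaccard index of the clustered genes was 0.429 and the number of members counted in every cell was 8.

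Genes that work with cadherins were read from 5 lists, beside the 35.3% of all genes with a count in every cell and the 33.4% with none. Of 18 catenins and junction partners, 12 were counted in every cell. Beta-catenin (Ctnnb1), which links cadherin tails to alpha-catenin, was at 1473 CPM in CPC10, while the remaining cells ran from 166 to 396 CPM. Alpha-catenin (Ctnna1), the link to actin, was steadier, with a low of 233 CPM, a median of 399 CPM and a high of 710 CPM. Plakoglobin (Jup) was at 338 CPM in CPC10 and at most at 125 CPM elsewhere, and p120-catenin (Ctnnd1), which keeps cadherins at the membrane, had a median of 18.0 CPM. The neuronal alpha-catenin Ctnna2 was not counted.

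The wider cadherin superfamily was mostly without counts. Of 27 such genes outside the rule, among them the desmosomal cadherins, 18 had no count in any cell and 2 were counted in every cell. These were Fat1, a giant atypical cadherin, at 8.07 CPM in CPC10 and 90.7 to 265 CPM in the other cells, and calsyntenin 1 (Clstn1), at 0.939 CPM in CPC10 and 13.0 to 63.2 CPM in the others. Fat4 was counted in 11 cells, with a median of 10.3 CPM.

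Of 18 known regulators of the clustered promoters 15 were counted in every cell. The insulator protein Ctcf, which bridges these promoters to their enhancers, had a low of 15.2 CPM, a median of 43.4 CPM and a high of 94.2 CPM. The cohesin subunit Rad21 ran from 25.6 CPM through 79.0 CPM to 283 CPM, and Smchd1, a repressor of the clusters, from 3.99 CPM through 42.5 CPM to 133 CPM. Dnmt3b, the DNA methyltransferase that marks these promoters in the embryo, was counted in 2 cells.

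Several repressors of Cdh1 were counted in every cell, and others in fewer. Snai1, Snai2, Zeb1 and Zeb2, which bind and silence the Cdh1 promoter, were among the 7 of 15 genes of their list counted in every cell, with medians of 42.5, 23.5, 34.4 and 32.2 CPM. Twist1 was counted in 11 cells and was missing in CPC10, and Twist2 was counted in 5 cells, at most at 7.24 CPM in CPC1. Of the epithelial genes of the list, Ovol1, Ovol2 and Esrp1 had no count in any cell, Esrp2 was counted in 4 cells with a high of 39 counts in CPC7, Epcam had 11 counts in CPC6 alone, and Grhl2 was counted in 2 cells. Of 14 enzymes that cleave or mature cadherins 10 were counted in every cell. Adam10, which sheds the outer part of Cdh2, had a low of 55.8 CPM, a median of 128 CPM and a high of 273 CPM. The metalloprotease Mmp2 was at 1129 CPM in CPC10, where the median of the 12 cells was 2.68 CPM, and Mmp3 was at 657 CPM in CPC3 and at most at 41.2 CPM elsewhere.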

How the data were processed

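Polyadenylated RNA of 12 single cultured CPCs was copied over whole transcripts (Smart-Seq v4), and Nextera XT libraries were read as pairs of 75 bases. The authors deposited 1 table of raw counts, made by mapping with STAR 2.5.2b to mm10 and keeping uniquely mapped reads. The counting program, the annotation and the strand rule are not given in the sources used here. Totals ran from 3453708 to 5690184 counts.

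The members and gene lists were chosen with earlier results of these data known. Counts were scaled to 1000000 per cell (CPM). Positions, exon lengths and 75-base stretches came from GENCODE vM21, in which 91 of 91 members matched by symbol. Spread was log10 of the squared CV less the running median at that mean CPM, where the mean reached 1 CPM and at least 3 cells had a count, and the running number of cells was taken over all counted genes. Genes named were those counted in every cell, the 15 members of highest mean CPM, clustered genes reaching 10 CPM, members reaching 10 CPM with 80% of their CPM in 1 cell, and a list of named cadherins; other members with counts in a single cell or leading a cell were named after their values were seen. Endothelial, blood, fibroblast, mural, cardiomyocyte, mesothelial, Schwann and progenitor markers were summed per cell. Exact intervals (95%) and the limit of 3 counts for a gene at 0 cover counting error only, since reads carry no molecular identifiers. Detection thresholds, scaling, thinning, filters, windows and lengths were varied, and single cells were omitted. The spread measure was tested on simulated data. Since 12 cells without a labelled animal or culture form 1 sample, no test, p-value or doublet call was made. Scripts ran under Python 3.11.15 with scipy 1.17.1, pandas 2.3.3, numpy 2.4.6 and, for plots, matplotlib 3.10.9.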

Additional observations from a re-analysis of the deposited data

How the results depend on the processing

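Other than leaving out 1 cell, 13 settings gave 57 values over 9 results. Of these, 8 moved by 1 SD or more, or for a count of genes by more than 1.5 times, and 49 did not. The SD was taken between cells, but between genes for the spread results and between pairs of cells for the Jaccard index. The detection thresholds of 5 counts, 10 counts and 10 CPM gave 5 of the 8. The median number of clustered genes per cell was 9 at 5 counts, 6 at 10 counts and 1.5 at 10 CPM or more, the number of members in every cell was 3 at 10 CPM, and the median Jaccard index was 0 at 10 CPM, over the 60 pairs with such a gene in either cell. The sets without CPC3 and CPC10 and by number of genes were chosen after seeing the data. In the 5 libraries with fewer genes alone the median summed level was 566 CPM for Cdh and 39.4 CPM for Pcdhg genes, and in the 7 with more genes alone 10 members were counted in every cell. The median spread of the clustered genes was 0.118 and −0.0028 in these sets, and that of the others 0.321 and 0.229. The median spread of the clustered genes was 0.027, was 0.195 for genes at 5 CPM or more, and ran from −0.0076 to 0.086 when 1 cell was left out, so its sign is not fixed. With 1 cell left out, the members counted in every cell numbered 6 to 8 and the median Jaccard index was 0.375 to 0.412. No paired analysis was possible because the cells form 1 group and no result comes from a test. Depth limits the low values: 12 of the 140 clustered values with a count rested on 1 count. Gamma levels per length depend on the length used: on unshared bases the mean of Pcdhgc3 was 6.44 CPM per kilobase, beside 2.13 over all its exon bases.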

Other observations

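Fibroblast markers were summed to at least 761 CPM in every cell, with a median of 2096 CPM and a high of 7573 CPM in CPC12, and 5 of the 10 were counted in every cell. In CPC10 the sum of 4018 CPM was almost all Fn1 (3830 CPM), and Col1a1 (10.7 CPM) and Col1a2 (0.376 CPM) had their lowest values there. Of 10 mural markers only Pdgfrb was counted in every cell, and in CPC10 Pdgfrb had its lowest value, 3.57 CPM. Sums of 10 cardiomyocyte markers reached at most 86.6 CPM, with no count of Myh6, Myh7 or Actc1, and sums of 6 mesothelial markers at most 49.4 CPM. The 7 Schwann and neural markers reached 248 CPM in CPC6, of which Tubb3 gave 213 CPM, and Sox10 and Cdh19 had no count. Of 5 progenitor markers 4 were counted in every cell, all but Kit, with Cd34 between 122 and 1468 CPM.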
